A study of Mus musculus with 9 samples.

Results

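The genes described here are Clu, Tesc, Ndrg4, Ampd3, Tmem178, Triobp, Oxr1 and Naalad2, which differed from control in opposite directions after knockdown of Myt1 and of LSD1 in Neuro2a cells. Every probe set that the array platform's annotation assigns to one of these symbols and to no other was taken. This gave 16 probe sets for the 8 genes, out of 45037 probe sets that are not controls and 18193 named genes. Expression was measured on 9 one-colour arrays of Neuro2a, a neuroblastoma cell line from mouse. The siRNA treatment lasted 48 h. The groups were siMyT1, an siRNA against Myt1, siLSD1, an siRNA against the gene of LSD1 (Kdm1a), and siControl, a control siRNA, with 3 arrays each. All cells were of the same line and all received an siRNA. Whether arrays of a group came from separate cultures is not given in the labels, so errors and p-values describe the spread between these samples, which may be technical. In RNA from a bulk culture, fewer cells that express a gene and less RNA per cell cannot be told apart.

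Myt1, a transcription factor made in young neurons, binds DNA through zinc fingers that read an AAGTT core. LSD1 removes methyl groups from histone H3 and works in complexes with CoREST proteins and histone deacetylases, which in neural cells take part in silencing and timing of neuronal genes. The series treats Myt1 as a partner of the LSD1 complex, and the question here is how transcripts behaved that were lower after loss of one protein and higher after loss of the other. The 8 genes were chosen for that behaviour in both comparisons with siControl. Their differences are therefore given as a description with no test, and the test p-values below belong to other genes.

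The genes fall into 2 groups of 4. Clu, Tesc, Ndrg4 and Ampd3 were lower in siMyT1 and higher in siLSD1 than in siControl. They encode a secreted chaperone, a calcium sensor, a cytoplasmic protein of neural tissue and an enzyme of adenine nucleotide breakdown. Tmem178, Triobp, Oxr1 and Naalad2 were higher in siMyT1 and lower in siLSD1. They encode a membrane protein of the endoplasmic reticulum, an actin-binding protein, an oxidation resistance factor and a peptidase.

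Start-site regions are shown for 4 of the genes, 2 of each direction, because Myt1 is a DNA-binding protein and these genes moved with its knockdown. The windows run from 250 bases before to 50 bases after a RefSeq start of build GRCm38.p6, are written 5′ to 3′ on the gene's strand, and carry in capitals each AAGTT found on either strand. The set holds both windows with a match and, for comparison, a window without one of each of the genes with the largest differences in siLSD1.
Triobp, chr15:78982806-78983105, plus strand: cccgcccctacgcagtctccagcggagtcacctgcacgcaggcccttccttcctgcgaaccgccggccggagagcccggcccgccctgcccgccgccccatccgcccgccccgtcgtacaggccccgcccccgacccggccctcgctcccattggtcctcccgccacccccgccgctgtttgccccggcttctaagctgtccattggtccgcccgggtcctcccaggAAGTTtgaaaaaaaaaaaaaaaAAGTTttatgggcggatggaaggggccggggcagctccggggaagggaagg
Naalad2, chr9:18397489-18397788, minus strand: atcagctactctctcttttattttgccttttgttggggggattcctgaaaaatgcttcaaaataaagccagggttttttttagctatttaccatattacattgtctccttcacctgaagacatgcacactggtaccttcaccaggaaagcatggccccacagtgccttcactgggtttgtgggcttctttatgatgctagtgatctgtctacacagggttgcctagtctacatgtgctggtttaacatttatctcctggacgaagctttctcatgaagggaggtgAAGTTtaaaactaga
Tesc, chr5:118027493-118027792, plus strand: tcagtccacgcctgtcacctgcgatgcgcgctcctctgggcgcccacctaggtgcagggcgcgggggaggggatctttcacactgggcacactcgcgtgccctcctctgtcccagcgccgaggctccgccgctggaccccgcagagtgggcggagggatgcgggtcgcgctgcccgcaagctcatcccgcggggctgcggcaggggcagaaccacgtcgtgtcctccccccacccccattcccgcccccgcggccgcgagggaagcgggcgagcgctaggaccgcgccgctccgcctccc
Ampd3, chr7:110768372-110768671, plus strand: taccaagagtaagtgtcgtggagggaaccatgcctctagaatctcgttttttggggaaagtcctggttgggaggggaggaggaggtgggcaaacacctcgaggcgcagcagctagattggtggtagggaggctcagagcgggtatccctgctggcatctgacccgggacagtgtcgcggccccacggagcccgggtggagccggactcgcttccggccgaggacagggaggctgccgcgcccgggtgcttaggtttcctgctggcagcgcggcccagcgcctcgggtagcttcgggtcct
Of the 8 genes, 6 had entries in the promoter table, with 13 windows between them, and Clu and Oxr1 are named only. AAGTT or its reverse complement was in 2 of the 13 windows, or 15.4%, against 39.3% of 32851 windows of the same length over 27025 genes. Windows of 1 gene count separately in these shares and in the medians below. Ndrg4, Ampd3, Triobp and Naalad2 gave more than 1 window each, so no lack of AAGTT by gene is read from the shares. The longer AAAGTTT, which contains AAGTT, was searched on both strands too and was in 1 of the 13 windows (7.69%, against 4.74% of all windows), the Triobp window above. The windows of Tesc, Ndrg4, Ampd3 and Tmem178 held 0 matches. The windows of the members had a median GC content of 62.7% and a median of 11 CpG dinucleotides, against 52.7% and 7 for all windows. The Triobp and Naalad2 windows differ in that respect, with GC contents of 69.0% and 42.3%. Letters in a window are a description and show no binding.

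Intensities are in the units of the deposited table, whose scaling is not given in the sources used here, so a value of a probe set has meaning only against the same probe set on other arrays. Differences are on the scale of log2(value + pseudocount), where the pseudocount is 0.196 deposited units, so that changes of dim probe sets are understated. Each siRNA lowered its own target. Myt1 measured 0.625, 0.882 and 0.474 units in siMyT1, against 4.60, 5.27 and 4.82 in siControl (log2 difference -2.60, SE 0.15, limma adjusted p = 6.05e-06). Kdm1a measured 4.80, 4.05 and 4.63 units in siLSD1, against 28.1, 30.1 and 28.9 in siControl (log2 difference -2.64, SE 0.07, limma adjusted p = 2.21e-09). Myt1 itself had 7.09, 7.59 and 6.16 units in siLSD1, above every siControl array, with a log2 difference of 0.49 that did not pass the test (SE 0.15, limma adjusted p = 0.0956). The other Myt1 probe set did not exceed 0.121 units on any array, and the other Kdm1a probe set averaged 1.10 ± 0.17 units in siLSD1 and 14.5 ± 0.46 in siControl (SD, n = 3 each). Array medians lay between 0.301 and 0.424 units, with the highest in siMyT1 replicate 2, and arrays of a group correlated at 0.989 to 0.993 on the log2 scale.

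Of the list of 12 sympathetic neuron and neuroblastoma markers 11 were measured, all averaging above 1 unit in siControl. Their summed level was 199 to 211 units in siMyT1, 275 to 307 in siLSD1 and 247 to 269 in siControl, so the sum moved in the direction of Clu, Tesc, Ndrg4 and Ampd3, and its part in their differences was not tested. A sum of units is weighted to its brightest probe sets, here Hand2, Stmn2 and Chgb (51.7, 54.0 and 49.8 units in siControl), so it does not stand for the whole list. The markers did not all move in that direction. In siMyT1 limma called 4 of the 11 lower (Phox2a, Hand2, Chga and Chgb) and 0 higher, and in siLSD1 5 higher (Phox2a, Gata2, Th, Ret and Tubb3) and 1 lower. Of all genes, 1.56% were called lower and 3.57% higher in siMyT1, and 3.26% higher and 3.95% lower in siLSD1. Hand2, a transcription factor of sympathetic neurons, fell in both knockdowns (log2 differences -0.46 and -0.38, limma adjusted p = 0.00746 and 0.0141). Dbh differed by -0.49 in siMyT1 and -0.30 in siLSD1 and Gata3 by 0.36 and 0.32, none of them called, and Gata2, Ret and Tubb3 overlapped siControl in siMyT1. Astrocyte markers (6 of 6 measured, among them Gfap and Aqp4), microglia and leukocyte markers (5 of 5, among them Ptprc) and fibroblast markers (7 of 7, among them Col1a1) all averaged under 1 unit in siControl. The astrocyte sum was 1.69 to 1.95 units in siMyT1, 1.49 to 2.02 in siLSD1 and 1.43 to 1.97 in siControl. The microglia and leukocyte sum was 0.441 to 0.677 units in siMyT1, 0.310 to 0.661 in siLSD1 and 0.322 to 0.563 in siControl. The fibroblast sum was 2.34 to 2.81 units in siMyT1, 1.70 to 1.83 in siLSD1 and 1.58 to 2.17 in siControl. The higher fibroblast sum in siMyT1 came mainly from Dcn, the 1 of 7 called (log2 difference 0.61, limma adjusted p = 0.0446). Without Dcn, singled out after its values were seen, the sum was 1.13 to 1.47 units in siMyT1, 1.09 to 1.21 in siLSD1 and 0.854 to 1.34 in siControl, and the groups overlapped.

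Across all probe sets, limma called 1461 in siMyT1 against siControl, or 3.24% of those tested, with 975 higher (2.16%) and 486 lower (1.08%). In siLSD1 it called 2275, or 5.05%, with 1016 higher (2.26%) and 1259 lower (2.8%). Between siMyT1 and siLSD1 it called 11.2% of probe sets, 7.63% higher and 3.61% lower in siMyT1, and 16.1% of genes, 11.3% higher and 4.77% lower in siMyT1. Higher calls made up 66.7% of those in siMyT1 (52.8% after quantile normalization, 54.0% after median centring of each array) and 44.7% of those in siLSD1 (50.8% and 65.2% after the same scalings). Of the calls between siMyT1 and siLSD1, 67.8% were higher in siMyT1 (51.7% and 38.3% after the same scalings). By the brightest probe set of each gene, 67 genes passed in both comparisons with opposite signs, 0.368% of all genes, with 38 of them lower in siMyT1 and higher in siLSD1 (0.209%) and 29 the other way (0.159%). Of all probe sets 0.215% did so (0.129% and 0.0866%). The same sign in both comparisons was called for 153 genes, 0.841%, and for 0.52% of probe sets. Both comparisons use the same siControl arrays. Of the 8 genes described here, 7 are among the 67, and 12 of their 16 probe sets passed in both. The selection fixes these counts, so nothing is read from them. The exception was Tmem178, whose probe set is dim and did not pass in either comparison when p-values were adjusted over all probe sets. It passed in both when 1 probe set per gene was fitted. All 8 genes passed in both in that fit, after quantile normalization and with a filter on dim probe sets. Without the intensity trend 4 of the 8 passed in both. With a larger pseudocount, or with only the 2 compared groups fitted, 6 passed, and with 1 array left out 6 or 7.

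**Figure D1:**
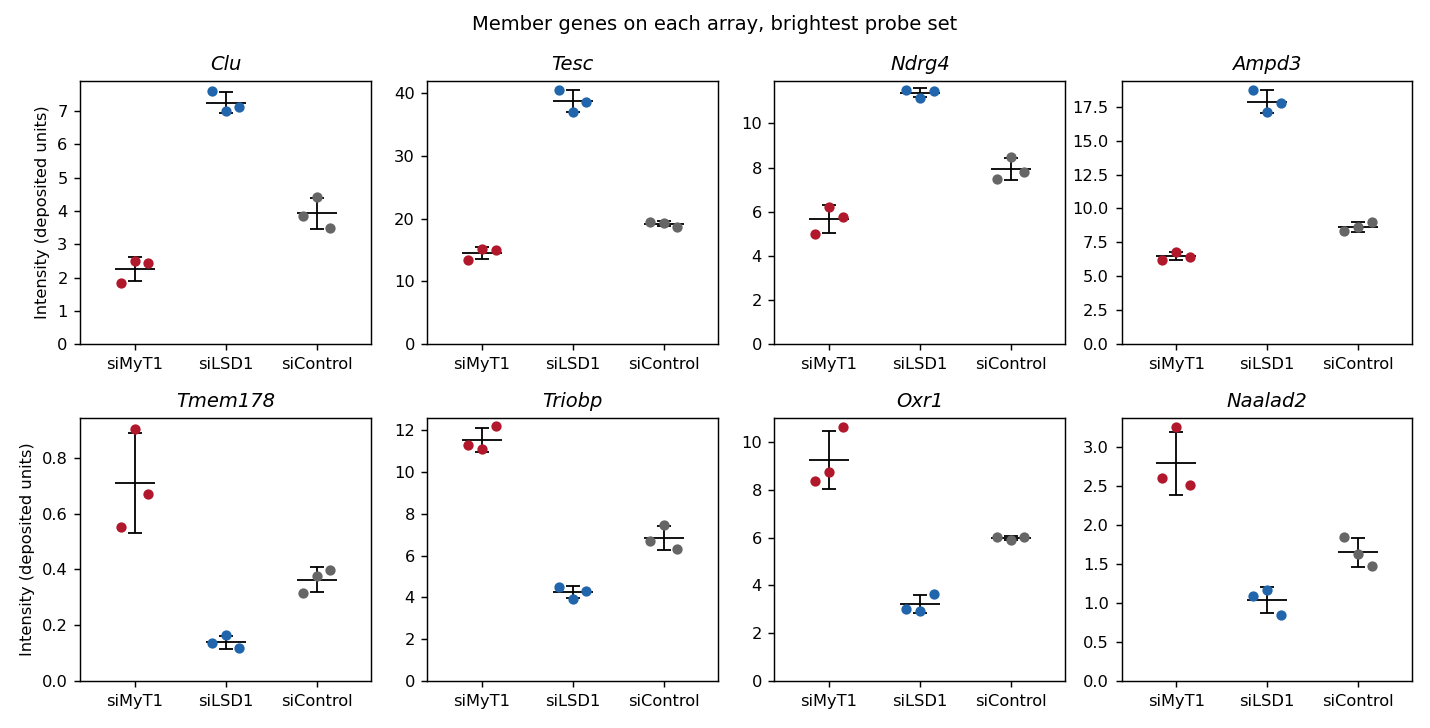
Intensity in deposited units of the brightest probe set of each gene on each array (points), for siMyT1, siLSD1 and siControl, with the mean and SD of 3 arrays (bars). In all 8 panels the siControl arrays lie between the 2 knockdown groups without overlap, siMyT1 being lowest in the upper row and highest in the lower row.

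Clu encodes clusterin, or apolipoprotein J, a secreted chaperone of misfolded proteins that is abundant in brain. Its brightest probe set, 1454849_x_at, measured 1.83, 2.49 and 2.44 units in siMyT1, 7.61, 7.01 and 7.14 in siLSD1 and 3.86, 4.43 and 3.50 in siControl. The 3 groups were separate on all arrays, and the mean was 57.2% of siControl in siMyT1 and 185% in siLSD1 (log2 differences -0.76, SE 0.12, and 0.86, SE 0.12). Probe sets ending in _x_at or _s_at, among them the brightest ones of Tesc, Ndrg4 and Naalad2, were left out in 1 alternative. Probe set 1418626_a_at, the one of Clu not marked as open to cross-hybridisation, measured 1.05, 1.45 and 1.24 units in siMyT1, 4.80, 4.57 and 4.77 in siLSD1 and 2.58, 2.41 and 2.59 in siControl. Its log2 differences, -0.92 in siMyT1 and 0.85 in siLSD1 (SE 0.11 each), leave the largest gap between the knockdowns on the log2 scale of the 16 probe sets. Its level was 3.78-fold higher in siLSD1 than in siMyT1. In deposited units the dim Tmem178 probe set had a larger ratio, 5.10-fold higher in siMyT1 than in siLSD1. Probe set 1437689_x_at gave -0.89 in siMyT1 and 0.78 in siLSD1. Probe set 1437458_x_at gave -0.81 in siMyT1 and the smallest Clu difference in siLSD1, 0.47, with 4.31, 4.48 and 4.59 units in siLSD1 and 2.84, 3.28 and 3.42 in siControl. All 4 probe sets thus ran the same way, but they report on 1 transcript and are not replicates of it.

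Tesc encodes tescalcin, a calcium-binding EF-hand protein that associates with the sodium/proton exchanger NHE1. Probe set 1418744_s_at measured 13.5, 15.2 and 15.01 units in siMyT1, 40.5, 37.0 and 38.5 in siLSD1 and 19.5, 19.3 and 18.7 in siControl. The level was 76.0% of siControl in siMyT1 and 202% in siLSD1 (log2 differences -0.39 and 1.01, SE 0.06 each), with no overlap of arrays. Probe set 1418743_a_at measured 4.70, 5.67 and 4.10 units in siMyT1, 14.3, 14.02 and 14.7 in siLSD1 and 4.33, 8.002 and 4.37 in siControl. Here siLSD1 was above all other arrays (log2 difference 1.39, SE 0.19), while siMyT1 overlapped siControl (-0.15, SE 0.19). That difference in siMyT1 rested on siControl replicate 2 and was 0.13 without it, so the lower level of Tesc in siMyT1 is carried by 1 of its 2 probe sets.

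Ampd3 encodes an AMP deaminase, which converts AMP to IMP. Its single probe set measured 6.19, 6.77 and 6.43 units in siMyT1, 18.8, 17.1 and 17.7 in siLSD1 and 8.30, 8.61 and 9.02 in siControl. The groups did not overlap, and the mean was 74.8% of siControl in siMyT1 and 207% in siLSD1 (log2 differences -0.41 and 1.03, SE 0.07 each). Ampd3 and the brightest probe set of Tesc thus had nearly the same pair of differences, with the larger one in siLSD1.

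Ndrg4 encodes an NDRG family protein of brain and heart. Probe set 1426615_s_at measured 4.99, 6.23 and 5.77 units in siMyT1, 11.5, 11.2 and 11.5 in siLSD1 and 7.501, 8.47 and 7.79 in siControl (log2 differences -0.47 and 0.51, SE 0.08 each). Probe set 1436188_a_at measured 2.24, 2.68 and 2.66 units in siMyT1, 5.76, 4.70 and 6.30 in siLSD1 and 3.50, 3.998 and 3.65 in siControl (log2 differences -0.53 and 0.56, SE 0.11 each). Both probe sets separated the 3 groups, at 71.5% and 68.0% of siControl in siMyT1 and 144% and 150% in siLSD1. Of the 4 genes of this direction, Ndrg4 had the smallest gap between the knockdowns by its brightest probe set, 2.01-fold higher in siLSD1 than in siMyT1.

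Triobp encodes a protein that binds filamentous actin and the guanine exchange factor Trio, and its long forms bundle actin in the rootlets of hair cell stereocilia. Its probe set measured 11.3, 11.1 and 12.2 units in siMyT1, 4.49, 3.93 and 4.29 in siLSD1 and 6.71, 7.46 and 6.33 in siControl. The mean was 169% of siControl in siMyT1 and 62.1% in siLSD1 (log2 differences 0.74 and -0.66, SE 0.08 each), and no array of one group reached those of another.

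Oxr1 encodes oxidation resistance 1, a TLDc domain protein that protects mouse neurons from oxidative damage. Probe set 1418501_a_at measured 8.38, 8.74 and 10.6 units in siMyT1, 3.03, 2.95 and 3.64 in siLSD1 and 6.03, 5.88 and 6.02 in siControl (log2 differences 0.61 and -0.87, SE 0.10 each). Probe set 1418502_a_at measured 5.38, 5.85 and 5.87 units in siMyT1, 2.36, 2.02 and 2.11 in siLSD1 and 3.74, 4.01 and 3.46 in siControl (0.59 and -0.74, SE 0.09 each). Both separated the 3 groups, at 155% and 153% of siControl in siMyT1 and 53.6% and 57.8% in siLSD1. The third Oxr1 probe set, 1438599_at, stayed between 0.0157 and 0.0631 units on all 9 arrays, below the pseudocount, and its groups overlapped.

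Naalad2 encodes glutamate carboxypeptidase III, a peptidase that can cleave the neuropeptide N-acetylaspartylglutamate (NAAG). Probe set 1422671_s_at measured 2.605, 3.25 and 2.51 units in siMyT1, 1.09, 1.17 and 0.850 in siLSD1 and 1.85, 1.63 and 1.47 in siControl. The groups did not overlap, at 169% of siControl in siMyT1 and 62.9% in siLSD1 (log2 differences 0.69 and -0.58, SE 0.14 each). Probe set 1457776_at was near the pseudocount, with 0.244, 0.276 and 0.180 units in siMyT1, 0.111, 0.0160 and 0.129 in siLSD1 and 0.178, 0.220 and 0.178 in siControl. There siLSD1 lay below siControl on all arrays (log2 difference -0.49, SE 0.19) and siMyT1 overlapped it (0.14, SE 0.19).

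Tmem178 encodes a transmembrane protein of the endoplasmic reticulum that in mouse osteoclasts restrains calcium signals. Its single probe set measured 0.552, 0.905 and 0.669 units in siMyT1, 0.136, 0.164 and 0.116 in siLSD1 and 0.315, 0.376 and 0.400 in siControl. The groups did not overlap, at 195% of siControl in siMyT1 and 38.2% in siLSD1, but the siLSD1 arrays lie below the pseudocount and those of siControl little above it. Its log2 differences, 0.68 and -0.74 (SE 0.20 each), depend on the pseudocount and ranged from 0.43 to 0.93 in siMyT1 and from -1.36 to -0.38 in siLSD1 over all alternatives.

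**Figure D2:**
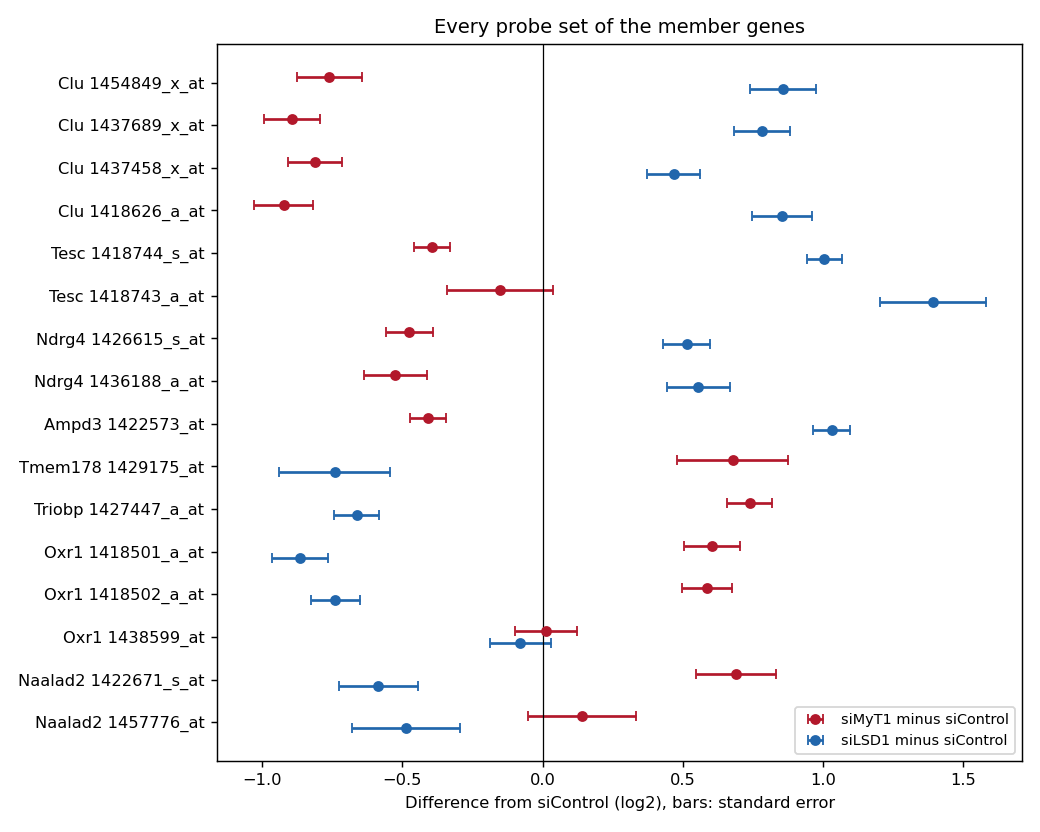
Log2 differences from siControl of each of the 16 probe sets in siMyT1 (red) and siLSD1 (blue), with the standard error of the fit (bars). The 2 differences have opposite signs for 16 of 16 probe sets, but those of Oxr1 1438599_at lie at 0.01 and -0.08, and siMyT1 differences of Tesc 1418743_a_at and Naalad2 1457776_at are within their standard errors of 0.

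In 13 of the 16 probe sets no siMyT1 and no siLSD1 array overlapped siControl and the signs were opposite, a pattern that 2.44% of all probe sets showed. The 3 exceptions were the second probe sets of Tesc and Naalad2 and the dim one of Oxr1. Arrays of siMyT1 were separate from siControl for 13 of 16 (18.9% of all probe sets), those of siLSD1 for 15 of 16 (22.1%), and siMyT1 from siLSD1 for 15 of 16 (27% of all probe sets). Because these separations chose the genes, nothing is read from the shares. The direct difference of siMyT1 minus siLSD1 equals the siMyT1 difference minus the siLSD1 difference, so its sign followed from the choice of the genes. For the brightest probe sets of Clu, Tesc, Ndrg4 and Ampd3 it lay between -1.62 and -0.99 on the log2 scale. For those of Tmem178, Triobp, Oxr1 and Naalad2 it lay between 1.28 and 1.47.

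The 8 genes differed in where siControl stood between the knockdowns. On the log2 scale, with siMyT1 at 0% and siLSD1 at 100% of the distance, siControl stood at 28.1% for Tesc and 28.4% for Ampd3, so that most of their span lay between siControl and siLSD1. It stood at 47.0% for Clu, 48.0% for Ndrg4, 47.8% for Tmem178, 52.7% for Triobp and 54.2% for Naalad2, close to the middle. For Oxr1 it stood at 41.2%. By brightest probe set, the difference in siLSD1 was the larger one for 6 of the 8 genes, the exceptions being Triobp and Naalad2. For Clu, Ndrg4, Tmem178, Triobp and Naalad2, however, the 2 sizes differed by less than their SE. On the other Clu probe sets the difference in siMyT1 was the larger, with siControl at 53.3%, 63.4% and 52.0%. On the other Tesc probe set siControl stood at 9.8%. Over the 38 genes called lower in siMyT1 and higher in siLSD1, the siLSD1 difference was the larger for 24, and over the 29 of the other direction for 12.

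Within the knockdown groups, the arrays often stood in the same order. In all 9 probe sets of Clu, Tesc, Ndrg4 and Ampd3, siMyT1 replicate 2 was the highest siMyT1 array, and siLSD1 replicate 2 was the lowest siLSD1 array in 8 of them. Both arrays thus lay on the siControl side of their group. On all probe sets, siMyT1 replicate 2 had the highest array median, 0.424 units, against 0.304 and 0.353 units for the other siMyT1 arrays. By summed intensity it was below siMyT1 replicate 3 (214041 and 219953 units). For siLSD1 replicate 2 the summed intensity was the lowest of all arrays, 196271 units. Its median, however, was the highest of the siLSD1 arrays (0.319 units, against 0.313 and 0.301). Neither measure alone thus ran with the order in both groups. In the 5 probe sets of the other genes that averaged at least 0.5 units in a group, siMyT1 replicate 2 was highest in 2 and lowest in 1, and siLSD1 replicate 2 was lowest in 3 and highest in 2. The part of array-wide brightness in this order was not tested.

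**Figure D3:**
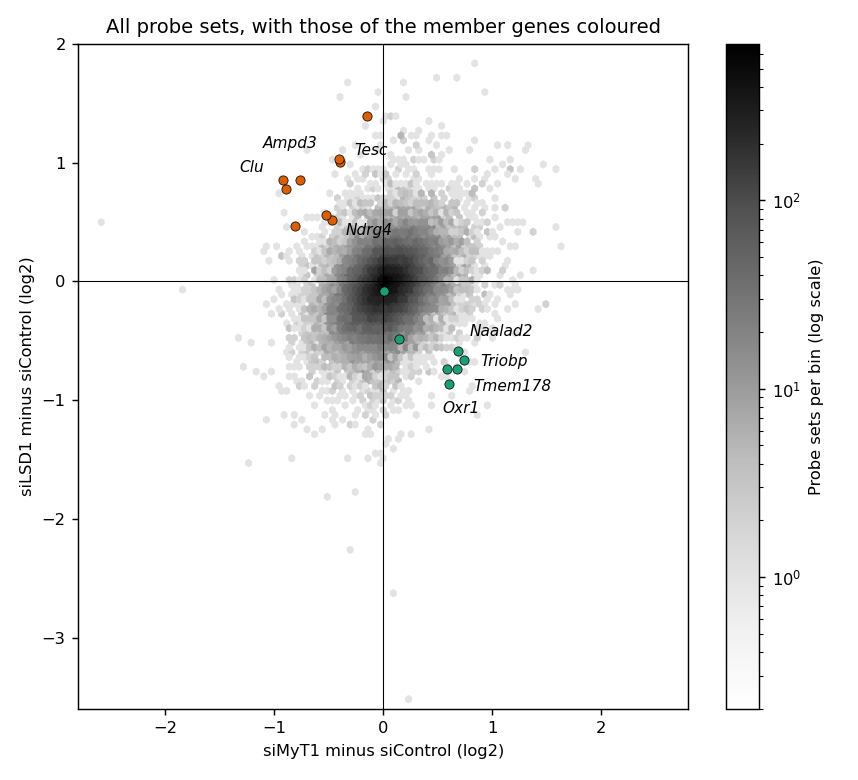
Log2 difference of siMyT1 from siControl (x axis) against that of siLSD1 from siControl (y axis) for all 45037 probe sets (grey, bins shaded by a log count). Probe sets of Clu, Tesc, Ndrg4 and Ampd3 are orange and lie in the upper left, and those of Tmem178, Triobp, Oxr1 and Naalad2 are green, and all 7 lie in the lower right. Nearest to an axis are Tesc 1418743_a_at at -0.15 in siMyT1, Naalad2 1457776_at at 0.14 in siMyT1 and Oxr1 1438599_at at 0.01 in siMyT1 and -0.08 in siLSD1. Both axes share the siControl arrays.

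Other genes with the same behaviour were chosen by the size of their smaller difference and are described without a test. Lower in siMyT1 and higher in siLSD1, the 5 largest that are not described above were Nap1l5, Ache, Myt1l, Disp2 and Ak1. Nap1l5, an imprinted nucleosome assembly gene, measured 2.66, 2.85 and 3.10 units in siMyT1, 10.2, 9.45 and 9.79 in siLSD1 and 5.46, 6.04 and 5.84 in siControl (log2 differences -0.96 and 0.74). Myt1l, the neuronal paralogue of Myt1, averaged 1.39 ± 0.11 units in siMyT1, 3.03 ± 0.36 in siLSD1 and 2.06 ± 0.036 in siControl (SD, n = 3 each; -0.51 and 0.51). Ache, acetylcholinesterase, differed by -0.55 and 0.57 and Disp2, a dispatched family membrane protein, by -0.44 and 0.89. In the other direction they were Il15ra, Herc6, Klf4, Amotl2 and Iftap. Il15ra, a receptor subunit for interleukin 15, averaged 1.16 ± 0.19 units in siMyT1, 0.143 ± 0.038 in siLSD1 and 0.505 ± 0.055 in siControl (0.95 and -1.05). Herc6, an interferon-induced ubiquitin ligase, differed by 0.74 and -0.77, Klf4, a Kruppel-like transcription factor, by 0.68 and -0.58, Amotl2, an angiomotin family scaffold, by 0.65 and -0.57, and Iftap by 0.57 and -0.68. Over all 38 genes lower in siMyT1 the siMyT1 differences had a median of -0.42 and the siLSD1 differences a median of 0.43, and over the 29 genes higher in siMyT1 the medians were 0.54 and -0.49.

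Genes whose arrays ran most like the 4 genes of a direction were found by Pearson's r over the 9 arrays with their mean centred log2 profile, among 11129 other genes brighter than the median probe set. The measure rests mainly on the 3 group levels and says nothing of the size of a difference. For Clu, Tesc, Ndrg4 and Ampd3 the most alike were Ak1, Rcan3 and Dgkz (r = 0.992 each), Lrpap1 (0.989) and Lrrn3 (0.988). Ak1 measured 6.36, 6.68 and 6.34 units in siMyT1, 15.1, 13.8 and 14.5 in siLSD1 and 9.04, 9.33 and 8.03 in siControl. The others differed less from siControl, from -0.24 to -0.14 in siMyT1 and from 0.25 to 0.58 in siLSD1. For Tmem178, Triobp, Oxr1 and Naalad2 they were Gpt2 (0.992), Il15ra (0.991), 1110032A03Rik, Axl and Ift74 (0.990 each). Axl, a receptor tyrosine kinase, differed by 0.63 in siMyT1 and -0.53 in siLSD1, and Ift74, a subunit of the intraflagellar transport machinery, by 0.48 and -0.52. Rcan3, a calcineurin regulator, differed by -0.20 and 0.42, and Dgkz, a diacylglycerol kinase, by -0.22 and 0.57.

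Families and partners of the 8 genes were taken as 8 lists with 100 genes in all, of which 88 were measured by a named probe set. With limma, 4 rose and 1 fell in siMyT1 (5.68% of the 88, against 5.13% of all genes, 3.57% higher and 1.56% lower), and 4 rose and 1 fell in siLSD1 (5.68%, against 7.21% of all genes, 3.26% higher and 3.95% lower), shares near the background. Of the 88, 81 were called in neither comparison. Their median log2 difference was 0.09 in siMyT1, against 0.05 for all genes, and -0.03 in siLSD1, against -0.03.

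The enzymes of AMP, IMP and adenosine around Ampd3 held the 1 partner gene of 88 called in opposite directions, as 0.368% of all genes were. Ak1, adenylate kinase 1, which interconverts AMP, ADP and ATP, fell in siMyT1 (6.46 ± 0.19 units, against 8.80 ± 0.68 in siControl, SD, n = 3 each; log2 difference -0.43, SE 0.07, limma adjusted p = 0.00595). It rose in siLSD1 to 14.5 ± 0.66 units (log2 difference 0.71, SE 0.07, limma adjusted p = 0.000111). Its arrays did not overlap between the 3 groups, but the call in siMyT1 was lost when the fit had no intensity trend (limma adjusted p = 0.0519). Its other probe set, below the pseudocount on average in each group, was not called. Adsl, adenylosuccinate lyase, which makes AMP in the purine nucleotide cycle, rose in both knockdowns, with 12.6 ± 1.1 units in siMyT1, 11.03 ± 0.89 in siLSD1 and 7.95 ± 0.81 in siControl (log2 differences 0.66 and 0.46, SE 0.09, limma adjusted p = 0.00185 and 0.00987). The call in siLSD1 was lost without siControl replicate 1 (adjusted p = 0.0580) and in the fit with no intensity trend (adjusted p = 0.0635). The AMP deaminase isoforms were not called. Ampd2 averaged 28.3 ± 2.1 units in siMyT1, 37.3 ± 8.4 in siLSD1 and 33.7 ± 6.3 in siControl, and Ampd1, the muscle form, averaged below the pseudocount in each group. In all, 1 of 19 measured enzymes rose and 1 fell in siMyT1, and 2 rose in siLSD1, against 5.13% and 7.21% of all genes called.

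Of 13 actin bundling genes and Trio partners 2 rose in siMyT1, and 1 rose and 1 fell in siLSD1. Of all genes 5.13% were called in siMyT1 and 7.21% in siLSD1, and nothing is read from counts in so short a list. Lima1, an actin cross-linking LIM protein, rose in siMyT1 (7.09, 7.89 and 8.79 units, against 4.34, 4.39 and 3.69 in siControl; log2 difference 0.90, SE 0.09, limma adjusted p = 0.000239). In siLSD1 it measured 4.64, 4.67 and 4.59 units, which is 0.16 above siControl and not called, but another Lima1 probe set was called higher there (0.68, limma adjusted p = 0.00412). Of the 4 other Lima1 probe sets, 3 were called higher in siMyT1 (0.50 to 0.86 on the log2 scale). Actn1, alpha-actinin 1, rose in both (33.7 ± 0.71 units in siMyT1, 39.1 ± 3.2 in siLSD1 and 27.6 ± 0.81 in siControl; log2 differences 0.29 and 0.50, limma adjusted p = 0.0376 and 0.000943), but its call in siMyT1 did not hold without any 1 of the siMyT1 or siControl arrays or without siLSD1 replicate 3 (adjusted p up to 0.270 over all alternatives). Its 2 other probe sets were not called in siMyT1 (log2 differences 0.02 and 0.19, limma adjusted p = 0.965 and 0.309) and were called higher in siLSD1 (0.48 each, limma adjusted p = 0.0354 and 0.00562). Myh10, a non-muscle myosin heavy chain, fell in siLSD1 by 0.32 on the log2 scale (limma adjusted p = 0.0279), a call lost without siLSD1 or siControl replicate 2 or 3 (adjusted p up to 0.186 over all alternatives).

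In the remaining lists few genes passed, where 5.13% of all genes were called in siMyT1 and 7.21% in siLSD1. Of 12 calcineurin and sodium/proton exchanger genes, the relatives and partners of Tesc, 1 rose in siLSD1. It was Ppp3cb, a calcineurin catalytic subunit, with 21.1 ± 0.57 units in siLSD1 and 17.6 ± 0.49 in siControl (log2 difference 0.26, limma adjusted p = 0.0246), a call lost without siLSD1 or siControl replicate 1 or 3 (adjusted p up to 0.134 over all alternatives), while another of its probe sets was called lower (-0.42, limma adjusted p = 0.00813). Of 10 TLDc proteins and antioxidant enzymes around Oxr1, Prdx3, a mitochondrial peroxiredoxin, rose in siMyT1 (25.6 ± 1.3 units, against 21.1 ± 0.52 in siControl; log2 difference 0.28, limma adjusted p = 0.0264), which was lost without siMyT1 replicate 2 or 3, siLSD1 replicate 3 or any 1 siControl array (adjusted p up to 0.168 over all alternatives). Of 9 clusterin receptors and chaperones, 12 calcium store genes and 10 NAAG genes, 0 were called by limma in either comparison. The other NDRG genes were not called either. Ndrg3 differed by -0.25 in siMyT1 and -0.01 in siLSD1, Ndrg2 by -0.20 and -0.42 (limma adjusted p = 0.0619 for siLSD1), and Ndrg1 by 0.08 and -0.15. Folh1, the NAAG peptidase closest to Naalad2, averaged under the pseudocount in each group, and Tmem178b averaged 0.4996 ± 0.32 units in siMyT1, 0.216 ± 0.14 in siLSD1 and 0.257 ± 0.11 in siControl.

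**Figure D4:**
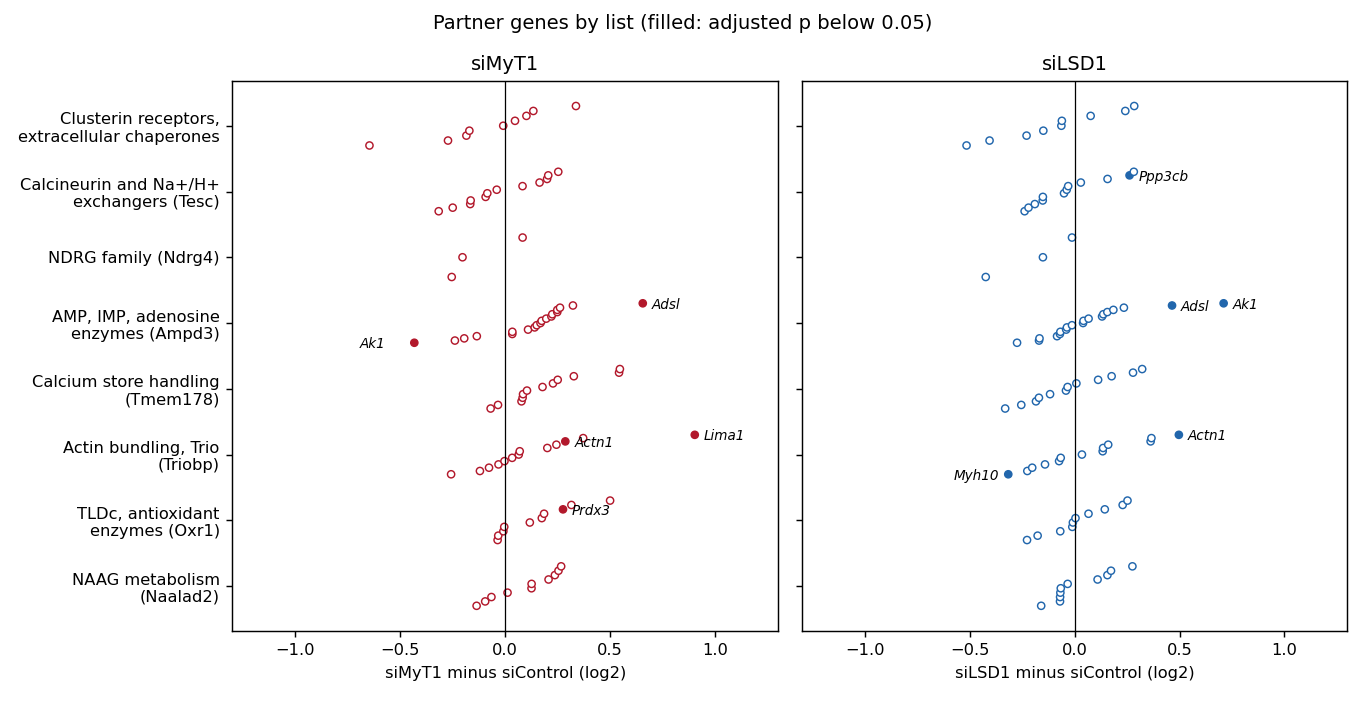
Log2 differences of the 88 partner genes, by brightest probe set, in siMyT1 (left) and siLSD1 (right) minus siControl, in rows by list and sorted within a list. Filled points passed the test (limma adjusted p below 0.05) and are named; Ak1 is on the left side in siMyT1 and on the right side in siLSD1.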

How the data were processed

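RNA of 9 Neuro2a samples was labelled with biotin for one-colour arrays, per the labels' protocols. The deposited table holds 1 linear intensity for each of 45101 probe sets and 9 arrays; how the authors summarised, background-corrected and scaled it is not given in the sources used here. Probe sets were named from the platform annotation (34945 with 1 symbol, 932 with several, which were not named, and 9211 unlisted), and 64 control probe sets were left out. Intensities were multiplied by 1 constant, 163.6, which sets their mean, trimmed by 2% at each end, to 500, and a pseudocount of 32 was added before log2. Array medians differed by at most 0.32 on the log2 scale, so no further scaling was applied.

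Group means were fitted with limma 3.58.1 in R 4.3.3 over all 9 arrays, with an intensity trend (6 residual and 6.07 prior degrees of freedom). Tests were two-sided, adjusted by the Benjamini-Hochberg method over 45037 probe sets at a threshold of 0.05. An exact permutation test of 3 arrays against 3 cannot go below p = 0.1. The number of arrays limits the precision. A gene is represented by its brightest probe set. The fit was also run on simulated arrays with independent normal noise and changes planted only in probe sets brighter than the median. That run covers neither changes in dimmer probe sets nor brightness differences between whole arrays, and nothing is concluded from it here. The genes described and all lists were chosen with earlier results of these data known.

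Named were every probe set of the 8 genes and both siRNA targets, up to 4 called genes per partner list with the smallest adjusted p, 7 family members whatever their p, the 5 most alike genes per direction, and the 5 largest others per direction. Other probe sets of called partner genes were named after their values were seen. Alternatives were scaling, pseudocount, dim-probe filter, probe-set choice, variance model, the replicate block and leaving out each array.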

Additional observations from a re-analysis of the deposited data

How the results depend on the processing

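The differences of the 16 probe sets from siControl were recomputed in 608 combinations of probe set, comparison and alternative: 592 moved by less than 1 SD of the replicates, 16 by more and 0 of the called ones changed sign. Of the differences not called, that of Tesc 1418743_a_at in siMyT1 changed sign in 1 alternative. Those of Oxr1 1438599_at did so in 4 alternatives in siMyT1 and in 1 in siLSD1. The genes were chosen on these differences, so the kept direction of the called ones is no sign of stability. The partner genes kept their direction in 199 of 199 values and lost their call in 37.

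Counts depended more on the processing. Quantile normalization gave 3163 called probe sets in siMyT1 (1461 in the fit above) and 4214 in siLSD1 (2275), 337 in opposite directions (97), and 11 and 13 partner calls (5 and 5). The filter on dim probe sets, which leaves fewer tests, gave 2384 in siMyT1, 192 opposite, and 9 and 8 partner calls. Without the trend the counts were 699 and 1261, 29 opposite, and 2 and 2 partner calls. Median centring gave 3 partner calls in siMyT1. Same-numbered arrays deviated from their group means with correlations between -0.0390 and 0.0434, so the numbers were not taken as pairs. With the replicate block the counts were 880 in siMyT1, 48 opposite and 3 partner calls in siLSD1. The cause of these shifts was not tested.

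Leaving out 1 array, which also removes a sample from the shared spread, gave 626 to 1611 calls in siMyT1, 1245 to 2344 in siLSD1, 3180 to 5155 between the knockdowns (5063 with all arrays), 27 to 93 opposite calls, and 3 to 6 and 3 to 5 partner calls. The opposite calls numbered 27 without siControl replicate 1, 53 without replicate 2 and 41 without replicate 3, 51 and 52 without siMyT1 replicate 2 or 3, and 45 without siLSD1 replicate 3. Dim probe sets, near the pseudocount, limit Tmem178, Naalad2 1457776_at and Oxr1 1438599_at. Without the _x_at and _s_at probe sets, Clu, Tesc, Ndrg4 and Naalad2 lost their brightest probe set. Of the 4 genes that kept theirs, 3 passed in both comparisons.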
